A study of Homo sapiens with 6 samples.

Results

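Oxidative phosphorylation genes were taken from an RNA-seq table of PaTu8988t cells by their symbols, and 112 of the 20347 genes in the table belonged to the set. A gene was a member when its symbol began with NDUFA, NDUFB, NDUFC, NDUFS, NDUFV, UQCR, ATP5 or MT-, when it was SDHA, SDHB, SDHC, SDHD or CYC1, or when its symbol began with COX4 to COX8. The members comprised 39 symbols of complex I, 8 complex I assembly factors (NDUFAF), 4 of complex II, 10 of complex III, 17 of complex IV, 19 of complex V, 13 protein genes of the mitochondrial genome (mtDNA) and 2 read-through symbols. The table held no ribosomal or transfer RNA gene of mtDNA.

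PaTu8988t is an established human cell line of pancreatic ductal adenocarcinoma (PDAC). RNA-seq compared 3 Control libraries with 3 SAMD1 KO libraries, and there was no other group. All cells were grown in high-glucose DMEM with fetal bovine serum, went through Lenti-CRISPR V2 and puromycin selection, and differed in that the plasmid held an unspecific control in Control cells and guide RNAs against *SAMD1* in the KO cells. Each SAMD1 KO library came from 1 independent clone, so SAMD1 KO replicates 1, 2 and 3 are called clones 1, 2 and 3 here, while the labels do not say how the Control replicates were separated.

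The respiratory chain sits in the inner mitochondrial membrane. Complex I takes electrons from NADH and complex II (succinate dehydrogenase, also an enzyme of the TCA cycle) takes them from succinate. Coenzyme Q carries them to complex III, cytochrome c carries them on to complex IV, and complex IV passes them to oxygen, while complex V (ATP synthase) makes ATP from the resulting proton gradient. Most subunits are encoded in the nucleus and imported, whereas a small core of complexes I, III, IV and V is transcribed from mtDNA as long polycistronic RNAs. SAMD1 is a chromatin reader that binds unmethylated CpG islands, the GC-rich type of promoter that many genes of nuclear-encoded mitochondrial proteins have.

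The promoter sequences of complex II are shown first because its catalytic subunit gene *SDHA* had the largest absolute log2 fold change of the 102 members tested. They are RefSeq sequences of GRCh38.p14, within 250 bases before the annotated start, written 5′ to 3′ on the strand of the gene. Capitals mark GCGC and TGCGCA, a core of the binding site of the transcription factor NRF1 that itself contains GCGC. Both motifs read the same on the other strand. The *SDHA* stretch is chr5:218144-218307 (plus strand), which lies between first exons on opposite strands and reaches at most 10 bases into either. The *SDHB* stretch is chr1:17054033-17054282 (minus strand), and only 30 bases around the motif are shown for *SDHD*, at chr11:112086750-112086779 (plus strand).
SDHA: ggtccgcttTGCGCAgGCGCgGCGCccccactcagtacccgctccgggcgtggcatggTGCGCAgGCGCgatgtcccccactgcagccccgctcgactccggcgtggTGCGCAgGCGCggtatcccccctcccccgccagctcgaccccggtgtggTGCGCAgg
SDHB: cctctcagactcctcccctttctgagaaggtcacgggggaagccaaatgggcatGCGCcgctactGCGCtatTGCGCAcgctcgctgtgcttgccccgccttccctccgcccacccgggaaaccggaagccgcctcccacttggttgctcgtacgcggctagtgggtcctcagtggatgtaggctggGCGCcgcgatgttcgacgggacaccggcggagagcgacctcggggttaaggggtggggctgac
SDHD: gacagctgtgttTGCGCAtGCGCgacgggt

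The *SDHA* window of 250 bases held TGCGCA 4 times and GCGC 11 times, whereas the *SDHB* and *SDHD* windows each held TGCGCA 1 time and GCGC 4 times. No promoter was matched for *SDHC*. Chosen after the counts were seen, *ATP5ME* held GCGC 12 times and *NDUFV3* 10 times. Their log2 fold changes were -0.06 and -0.01. Whether the number of motifs goes with the fold change was not tested. At least 1 GCGC was present in 76 of the 96 promoters matched for 78 nuclear-encoded members (79.2%), against 53.4% of all 35116 promoters in the RefSeq table. TGCGCA was present in 19 of the 96 (19.8%), against 6.9% of all promoters. A count of 3 or more TGCGCA occurred in 43 of all promoters (0.12%), and among the members' promoters only that of *SDHA* reached it. TGCGCA was chosen after the sequences had been read, a match is a run of letters and no measured binding site, and these windows hold no reading of SAMD1 binding.

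*SAMD1* itself was lower in every KO library. Its normalized count (the reads of the gene scaled by the size factor of the library) was 2231, 2382 and 2299 in Control replicates 1 to 3, and 874, 1082 and 825 in clones 1 to 3. The groups did not overlap, and the log2 fold change was -1.32 ± 0.105 (SE, limma, adjusted p = 0.000724). The libraries held 35589477 to 45172216 reads, and clones 2 and 3 were the deepest. Of the markers of the line, KRT8, KRT18 and EPCAM were at 34191, 29567 and 537 normalized counts in Control (means of 3 libraries). In SAMD1 KO they were at 45097 ± 11535, 43002 ± 9100 and 520 ± 102 (SD, n = 3). *KRT18* had a log2 fold change of 0.52 ± 0.146 (SE, limma, unadjusted p = 0.00881, adjusted p = 0.0598). The adjusted p was 0.195 for *KRT8* and 0.804 for *EPCAM*. *KRT7* rose from 30.2 ± 3.96 to 84.2 ± 6.31 (SD, n = 3 each), and *KRT19* was listed at 0 throughout. The summed counts of 6 fibroblast markers ran from 56.7 to 58.4 in Control and from 33.3 to 59.6 in SAMD1 KO, with *DCN* and *LUM* at 0. Of those tested, *COL1A1* was at 50.6 ± 1.91 and 26.2 ± 13.6 (adjusted p = 0.0980) and *PDGFRA* rose from 3.98 ± 0.572 to 17.9 ± 5.06 (SD, n = 3 each, adjusted p = 0.0139). The summed counts of 3 endothelial markers ran from 77.8 to 84.8 in Control and from 33.6 to 83.6 in SAMD1 KO. Of these, *CDH5* was at 33.1 ± 4.28 and 10.6 ± 7.21 (SD, n = 3 each, adjusted p = 0.0748 in limma). Its adjusted p was below 0.05 in DESeq2. *PECAM1* and *VWF* had adjusted p-values of 0.584 and 0.876 in limma. The 4 leukocyte markers, almost all *CD68*, summed to 357 to 377 and 251 to 334, with *CD3E* at 0.

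Of the 112 members, 102 averaged 10 or more normalized counts across the libraries and were tested, among 12773 tested genes. The question was whether loss of SAMD1 changed the expression of the respiratory chain. By the cut-off that the study used (log2 fold change beyond 0.5, unadjusted p below 0.01), 1 member rose, *NDUFB11*, and 1 fell, *SDHA*. Of all tested genes 5.77% rose and 2.08% fell by that rule, and the members' share was 0.98% in each direction. With no fold limit and a Benjamini-Hochberg adjusted p under 0.05, taken over all 12773 genes, 2 members rose (*NDUFB11*, *UQCRC1*) and 5 fell (*SDHA*, *MT-ND5*, *MT-ATP6*, *MT-ND6*, *MT-CO1*). The background for that rule was 8.32% higher and 4.7% lower, against 1.96% and 4.9% of the members. All p-values rest on the spread between 3 libraries a group, and in bulk RNA fewer cells of a type and less RNA per cell cannot be told apart.

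Nearly all nuclear-encoded subunits stayed close to their Control level. The median log2 fold change was -0.04 over the 81 tested nuclear-encoded subunits and -0.01 over all tested genes. A negative log2 fold change was found for 56 of these 81 subunits and for 6546 of all 12773 tested genes. Of the 89 nuclear-encoded members, assembly factors included, 78 (87.6%) had a log2 fold change within 0.2 of 0, as did 60.1% of all tested genes. The SE of these 89 estimates had a median of 0.073 on the log2 scale. An unadjusted p below 0.05, counted for several classes below, was found for 29.6% of all tested genes. Among the 89 it was found for 11.2%. The group values did not overlap for 6 members higher and 22 lower, of which 11 lower were mtDNA-encoded, while 19.2% of all tested genes were higher and 18.6% lower without overlap. The members' shares were 5.88% higher and 21.6% lower, so the higher share was below the background. The lower share pooled 11 of the 13 mtDNA-encoded members, far above the background, with 11 of the 89 nuclear-encoded members, below it. The mtDNA-encoded genes are transcribed together, so the 13 are not independent readings.

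**Figure D1:**
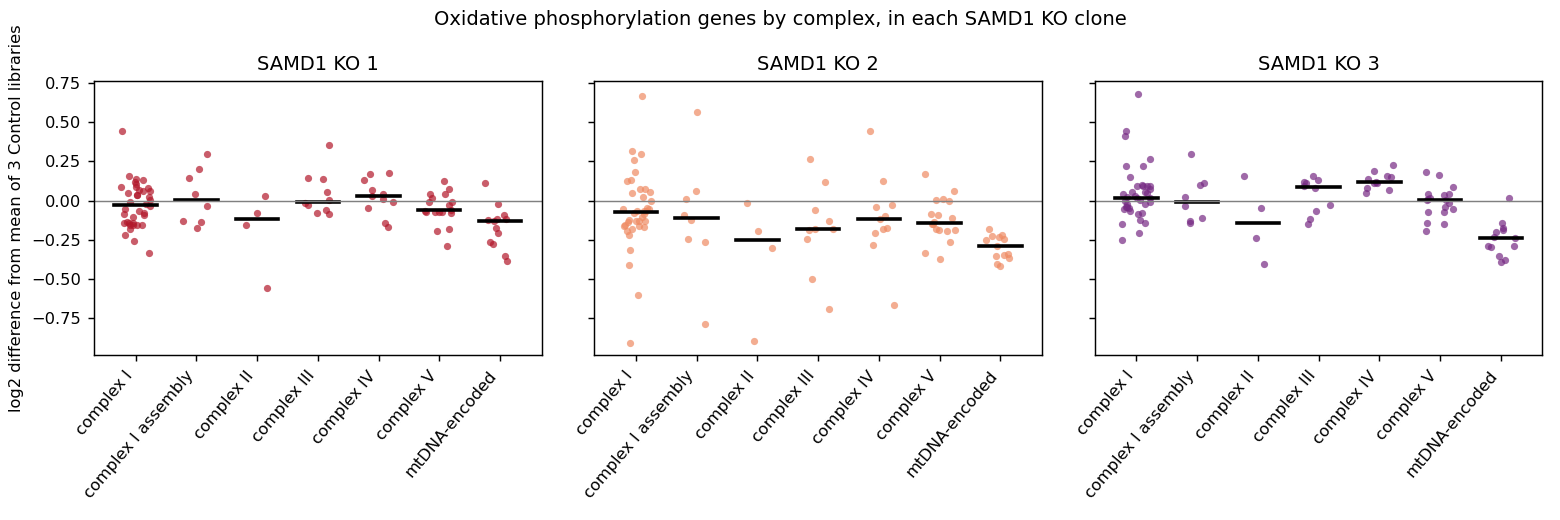
Log2 difference of each tested member from the mean of the 3 Control libraries (y axis), by complex (x axis), in each SAMD1 KO clone (1 panel each). Points are genes and black lines are class medians. The mtDNA-encoded median was below 0 in all 3 clones (-0.13, -0.29 and -0.24), while complex IV lay below 0 in clone 2 (-0.12) and above 0 in clone 3 (0.12).

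The clones differed in the level of the nuclear-encoded subunits. The median log2 difference of the nuclear-encoded subunits from the Control mean was -0.02, -0.12 and 0.04 in clones 1 to 3. In clone 2, 61 of the 81 subunits were below the Control mean, against 46 in clone 1 and 31 in clone 3. Complex IV showed this most plainly, with 9 of its 11 tested genes below the Control mean in clone 2 and 0 of 11 in clone 3. Of all 12773 tested genes, 6466, 6367 and 6478 were below the Control mean in clones 1 to 3. In reads, nuclear-encoded members held 1.04%, 1.00% and 1.02% of the Control libraries and 1.01%, 0.98% and 1.08% of those of clones 1 to 3, with overlapping groups.

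Among the 38 tested nuclear-encoded complex I subunits, 14 had a positive and 24 a negative log2 fold change, with a median of -0.03. The accessory subunit gene *NDUFB11* (chrX:47142071-47145466, minus strand) had normalized counts of 2554, 2694 and 2447 in Control and 3483, 4085 and 3415 in SAMD1 KO. All clones were above all Control libraries, and the log2 fold change was 0.51 ± 0.082 (SE, adjusted p = 0.00883), with a mean count 42.7% higher. Its chromosome neighbours were higher as well. The median log2 difference of the 40 tested genes around it was 0.40, 0.41 and 0.42 in clones 1 to 3, and *UBA1*, which makes the major ubiquitin-activating enzyme and is among the 2 nearest tested genes on either side, rose from 28096 to 35375. Relative to these neighbours the log2 fold change of *NDUFB11* was 0.10 (adjusted p = 0.440).

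Without clone 2 the log2 fold change of *NDUFB11* was 0.43 and without Control replicate 3 it was 0.48, both short of the fold limit, with adjusted p-values of 0.00753 and 0.0555. Elsewhere on chromosome X, *NDUFA1* (complex I) was at 2491 ± 72.7 in Control and 2530 ± 237 in SAMD1 KO and *COX7B* (complex IV) at 3004 ± 76.5 and 2936 ± 304 (SD, n = 3 each). Their adjusted p-values were 0.899 and 0.790, and their neighbours had medians between -0.16 and 0.08 in the 3 clones.

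No other nuclear-encoded complex I subunit passed either rule in limma, edgeR or DESeq2. Of the other 37, 2 had an unadjusted p below 0.05, against 29.6% of all tested genes. *NDUFAB1*, the acyl carrier protein of mitochondria, came next by p, with 2807, 2721 and 2756 in Control and 2431, 2565 and 2313 in SAMD1 KO (log2 fold change -0.18 ± 0.058, adjusted p = 0.0831). *NDUFS6* had 6359, 6441 and 6210 against 5724, 5076 and 5963 (-0.18 ± 0.068, adjusted p = 0.124), and all 3 clones lay below all Control libraries for both genes. The neighbours of *NDUFS6* had medians of -0.10, -0.38 and -0.13 in clones 1 to 3. After removal of the neighbours' median, *NDUFS6* was at 0.02 (adjusted p = 0.817) and *NDUFAB1* at -0.16 (adjusted p = 0.0585). *NDUFS1*, an iron-sulfur subunit and the most abundant nuclear-encoded complex I transcript by count, had 7310, 7336 and 7499 against 8069, 7498 and 8619 (0.12 ± 0.062, adjusted p = 0.225), with clone 2 inside the Control range.

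Of the 8 NDUFAF assembly factors, 0 passed in limma and the median log2 fold change was -0.02. An unadjusted p below 0.05 was found for 2 of the 8, against 29.6% of all tested genes. In edgeR and in DESeq2 1 passed the adjusted p, *NDUFAF3*. *NDUFAF3* had 1415, 1410 and 1403 in Control and 1621, 2092 and 1732 in SAMD1 KO. The groups did not overlap, clone 2 was the highest, and the log2 fold change was 0.36 ± 0.097 (adjusted p = 0.0531). It lies at chr3:49020459-49023495, where the neighbours' median was 0.25, 0.31 and 0.01 in clones 1 to 3. *NDUFAF6* and *NDUFAF7* were lower in all clones than in all Control libraries, at 884 ± 30.1 against 778 ± 40.4 and 837 ± 51.1 against 743 ± 33.0 (SD, n = 3 each), with adjusted p-values of 0.145 and 0.20.

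Complex II held the nuclear-encoded member with the most negative log2 fold change of those tested. *SDHA*, the flavoprotein subunit that oxidises succinate, had 3937, 3814 and 3812 normalized counts in Control and 2612, 2068 and 2904 in SAMD1 KO. Every clone was below every Control library, clone 2 was the lowest, and the mean fell by 34.4% (log2 fold change -0.62 ± 0.117, adjusted p = 0.0158). On recovered reads edgeR gave -0.60 with an adjusted p of 0.0180.

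*SDHA* lies at chr5:218303-257082 (plus strand), near the end of chromosome 5, so its neighbours lay mostly on the side away from that end. In clones 1, 2 and 3 it was -0.56, -0.90 and -0.41 on the log2 scale from the Control mean, where its neighbours had medians of -0.08, -0.33 and -0.10. With the neighbours' median removed in each library, the log2 fold change was -0.46 (adjusted p = 0.00450), and in each clone *SDHA* was lower than the median of its neighbours. Without clone 2 it was -0.48 (adjusted p = 0.00564), short of the fold limit but still past the adjusted threshold. Without Control replicate 1, 2 or 3 the adjusted p was 0.0839, 0.0725 or 0.0733. Single neighbours differed from that median. Of the 2 nearest tested genes on either side, *PDCD6* had 77.8, 84.1 and 88.2 against 54.4, 48.4 and 64.8 (-0.58 ± 0.175, adjusted p = 0.0726), with all clones below all Control libraries, and *PLEKHG4B* had 487, 498 and 531 against 294, 630 and 296 (-0.41 ± 0.281, adjusted p = 0.368). *PDCD6-AHRR*, a read-through symbol, was at 44.7 and 51.0 on average (adjusted p = 0.822). *CCDC127*, whose first exon faces that of *SDHA*, had 2929, 2834 and 2942 against 2823, 2133 and 2397 (-0.25 ± 0.099, adjusted p = 0.141). GENCODE 44 also holds an unnamed protein-coding gene on the same strand over the whole of *SDHA*, and pseudogene copies of *SDHA* exist, so its reads are uncertain to that extent.

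*SDHD*, a membrane anchor of the complex, had 2484, 2378 and 2588 in Control and 2228, 2008 and 2099 in SAMD1 KO. Its groups did not overlap either, with a log2 fold change of -0.23 ± 0.064 (adjusted p = 0.0529, and 0.0221 in DESeq2). An unnamed protein-coding gene covers nearly all of *SDHD* on the same strand in GENCODE 44, so its reads are uncertain to that extent. The iron-sulfur subunit gene *SDHB* had 4736, 4588 and 4581 against 4382, 4049 and 4488 (-0.11 ± 0.056, adjusted p = 0.252). *SDHC*, the other membrane anchor, had 1468, 1448 and 1472 against 1495, 1445 and 1632 (0.06 ± 0.066, adjusted p = 0.605). All clones were below all Control libraries for 3 of the 4 complex II genes, a pattern that 18.6% of all tested genes had. The 4 assembly genes of complex II gave 0 calls in limma, edgeR and DESeq2, and 0 unadjusted p-values below 0.05, with the smallest p at *SDHAF2* (890 ± 47.4 against 825 ± 58.9, SD, n = 3 each, adjusted p = 0.414) and *SDHAF1* (496 ± 50.1 against 463 ± 43.6, adjusted p = 0.611).

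**Figure D2:**
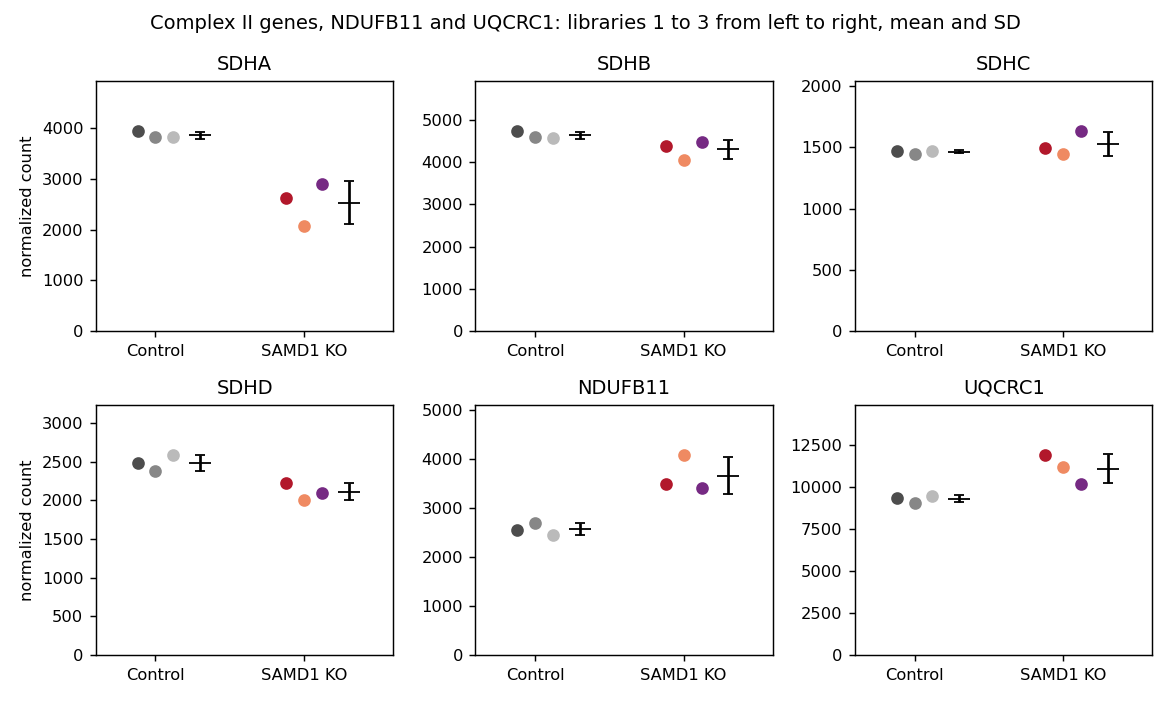
Normalized counts (y axis, from 0) of the 4 complex II genes, *NDUFB11* and *UQCRC1* in Control and SAMD1 KO (x axis), with 1 point a library and the mean ± SD (n = 3) beside the points. *SDHA* sits between 3812 and 3937 in Control and between 2068 and 2904 in SAMD1 KO, and *SDHC* overlaps between the groups.

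Complex III had 10 tested members, 2 with a positive and 8 with a negative log2 fold change. *UQCRC1*, a core subunit, had 9356, 9063 and 9480 in Control and 11917, 11195 and 10186 in SAMD1 KO. It rose with a log2 fold change of 0.25 ± 0.067 (adjusted p = 0.0490), in all 3 clones. The adjusted p was 0.0546 without clone 1, 0.0798 without clone 2 and 0.151 to 0.179 without 1 Control library. *UQCRC1* lies at chr3:48599002-48610976, and its neighbours had medians of 0.25, 0.31 and -0.01 in clones 1 to 3, which left 0.07 (adjusted p = 0.452) after their removal.

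The Rieske iron-sulfur protein gene *UQCRFS1* was at 4174 ± 177 in Control and 3861 ± 216 in SAMD1 KO (SD, n = 3 each, adjusted p = 0.268) and *UQCR11* at 1218 ± 49.0 and 1302 ± 32.4 (adjusted p = 0.342). *CYC1*, which encodes cytochrome c1, was the most abundant nuclear-encoded gene of the complex by count, with 10498, 10819 and 10416 against 10020, 9329 and 11472 (-0.05 ± 0.079, adjusted p = 0.730). Clones 2 and 3 lay on opposite sides of the Control range for *CYC1*. *UQCRHL*, a near-identical copy of *UQCRH* with which reads may be shared, was at 53.0 ± 13.4 and 46.8 ± 10.5.

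In complex IV, 6 of the 11 tested nuclear-encoded genes had a positive and 5 a negative log2 fold change, with a median of 0.00. By either rule 0 passed in limma, edgeR and DESeq2, and 1 had an unadjusted p below 0.05. *COX5B* had the smallest p, with 2977, 3196 and 2863 in Control and 3388, 4089 and 3316 in SAMD1 KO (0.25 ± 0.091, adjusted p = 0.117), and its groups did not overlap. *COX4I1*, the most abundant, had 20735, 19548 and 20235 against 18287, 16526 and 23588 (-0.07 ± 0.123, adjusted p = 0.753). Here clones 1 and 2 were below and clone 3 above every Control library. *COX6B1* (7506 ± 305 against 8043 ± 642) and *COX7A2L*, a factor of supercomplex assembly (4447 ± 143 against 4697 ± 357, SD, n = 3 each), had adjusted p-values of 0.398 and 0.488.

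Alternative subunits that other tissues use were at or near 0 in both groups. *COX4I2*, *COX6A2*, *COX7B2* and *COX8C* had no read in any library, where 3 reads would be 2.59 to 3.44 normalized counts. Their partners *COX6A1* (2113 ± 82.4 against 2157 ± 175), *COX7A2* (5207 ± 231 against 4957 ± 579) and *COX8A* (5595 ± 429 against 5879 ± 207) were abundant, as were *COX4I1*, *COX6B1* and *COX7B* (SD, n = 3 each). The muscle form *COX7A1* had 4.58, 3.91 and 5.73 against 4.94, 7.78 and 8.10, and the testis form *COX6B2* at most 3.91, both under the minimum for testing. *NDUFA4*, now counted with complex IV, was at 3043 ± 151 and 3358 ± 257, and its hypoxia-linked relative *NDUFA4L2* had 13.7, 21.5 and 14.9 against 16.8, 12.1 and 27.0. At this depth the same forms carried the reads in Control and SAMD1 KO cells. *NDUFA7*, a complex I subunit gene chosen for mention after its values were seen, had at most 3 reads in a library, and an unnamed protein-coding gene covers its whole span on the same strand in GENCODE 44. *ATP5MGL* also had at most 3 reads, and the 2 read-through symbols had none.

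Complex V had 18 tested members, 16 of them with a negative log2 fold change and a median of -0.07, and 0 passed in limma by either rule, with 1 unadjusted p below 0.05, 0 calls in edgeR and 1 in DESeq2. *ATP5F1C*, the central stalk subunit gamma, had the smallest p, with 11568, 10864 and 11425 in Control and 9873, 8707 and 10168 in SAMD1 KO. Its groups did not overlap (-0.24 ± 0.070, adjusted p = 0.0661), and it was the gene that passed in DESeq2 (adjusted p = 0.0299). *ATP5F1E* was at 9315 ± 401 and 8470 ± 495 (adjusted p = 0.188) and *ATP5MD*, now named ATP5MK, at 3572 ± 167 and 3199 ± 326 (SD, n = 3 each, adjusted p = 0.243). The catalytic core was abundant and close between groups, since *ATP5F1A* had 49234, 47540 and 49010 against 49155, 45020 and 50082 (-0.02 ± 0.064, adjusted p = 0.891). The identical mature c-ring subunit is encoded by the ATP5MC genes, of which *ATP5MC1* was at 2638 ± 73.5 and 2505 ± 30.2, *ATP5MC2* at 10729 ± 507 and 11412 ± 523, and *ATP5MC3* at 9271 ± 181 and 9273 ± 746 (SD, n = 3 each), with adjusted p-values of 0.366, 0.356 and 0.983.

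The mtDNA-encoded genes were lower in SAMD1 KO as a class. All 13 had a negative log2 fold change, with a median of -0.21, 4 fell by the adjusted p in limma (5 in edgeR and 9 in DESeq2), and 11 had groups that did not overlap. Since these genes are transcribed together, such counts do not add up independent readings. The 13 genes held the following shares of the reads. The shares were 2.81%, 2.68% and 2.56% in Control replicates 1 to 3 and 2.37%, 2.26% and 2.29% in clones 1 to 3. Each clone was below each Control library, and the means were 2.68% ± 0.123 and 2.31% ± 0.0547 (SD, n = 3 each). Per read of a nuclear-encoded member there were 2.71, 2.67 and 2.51 mtDNA-encoded reads in Control and 2.34, 2.31 and 2.13 in the clones, again with no overlap. The difference between the mean shares was -0.375 percentage points, and -0.313 without Control replicate 1. The libraries were made with a kit that selects polyadenylated RNA, and no p is given for the share because the smallest p of an exact permutation test at this group size is 0.1.

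*MT-ND5* (complex I) had 70576, 78181 and 63417 normalized counts in Control and 53986, 53064 and 53553 in SAMD1 KO. The clones lay close together below all Control libraries, with a log2 fold change of -0.40 ± 0.085 (adjusted p = 0.0250), and the mean fell by 24.3%. *MT-ND6* (complex I), the single protein gene on the other mtDNA strand, had 16156, 17339 and 13537 against 12182, 12060 and 12185 (-0.36 ± 0.090, adjusted p = 0.0412). The end of *MT-ND6* lies next to the end of *MT-ND5*. Since the strand setting of the counting is not stated, reads from its strand and the opposite one cannot be told apart. Control replicate 2 was the highest and Control replicate 3 the lowest Control library for both genes.

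*MT-ATP6* (complex V) had 81747, 74642 and 71956 in Control and 62672, 62139 and 62146 in SAMD1 KO (-0.29 ± 0.069, adjusted p = 0.0370). *MT-CO1*, the catalytic subunit of complex IV, had 181003, 175188 and 160909 against 143289, 135583 and 140517 (-0.30 ± 0.078, adjusted p = 0.0469). *MT-CO3* (complex IV) had 143178, 132506 and 130736 against 117352, 101029 and 110131 (-0.31 ± 0.084, adjusted p = 0.0532). For all 3 genes every clone lay below every Control library and Control replicate 1 was the highest. Without Control replicate 1, 0 members of any kind passed the adjusted p in limma, with 11 unadjusted p-values below 0.05, and the adjusted p of these 5 mtDNA-encoded genes then lay between 0.116 and 0.225.

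The other 8 mtDNA-encoded genes did not pass the adjusted p in limma or edgeR, and 4 of them (*MT-ND1*, *MT-ND2*, *MT-ND3* and *MT-ND4*) passed in DESeq2, with adjusted p-values of 0.0165, 0.0178, 0.0316 and 0.0177. Their mean counts in Control and SAMD1 KO were 68524 and 59384 for *MT-ND1*, 60692 and 49947 for *MT-ND2*, 19507 and 17229 for *MT-ND3*, 231850 and 202485 for *MT-ND4*, and 28120 and 25275 for *MT-ND4L*, all with groups that did not overlap. *MT-CO2* went from 101235 to 88614, also without overlap. *MT-CYB*, the mtDNA-encoded part of complex III, had 103239, 96412 and 98071 against 97553, 77830 and 87724, and clone 1 was inside the Control range. *MT-ATP8* had 13733, 13232 and 13332 against 14540, 11403 and 13576, with a log2 fold change of -0.04 ± 0.090 (adjusted p = 0.826), and overlaps *MT-ATP6* in the genome. Per kilobase of transcript the Control means ran from 29861 normalized counts (*MT-ND6*) to 172798 (*MT-CO3*). The genes with the lowest level per kilobase, *MT-ND6* and *MT-ND5*, had the most negative log2 fold changes. The other genes did not follow that order. *MT-CO3* came next at -0.31, while *MT-ND3*, the next lowest per kilobase (56378), was at -0.18.

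**Figure D3:**
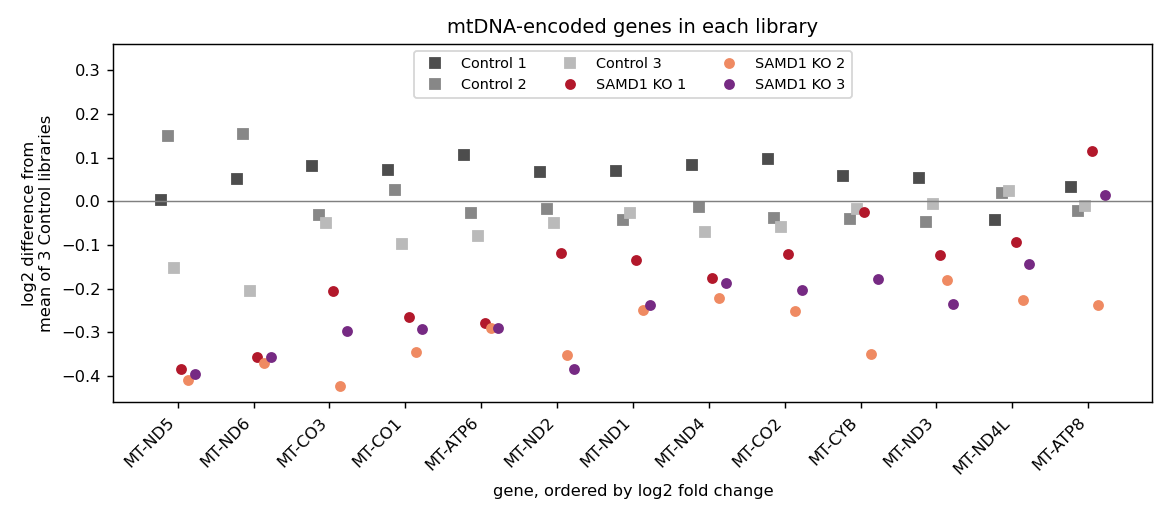
Log2 difference of each library from the mean of the 3 Control libraries (y axis) for the 13 mtDNA-encoded genes (x axis, ordered by log2 fold change). Squares are Control and circles are SAMD1 KO libraries, and the clones lie below all Control libraries for 11 genes, while they overlap with Control for *MT-CYB* and *MT-ATP8*.

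Genes that act on mtDNA expression were described by the same adjusted p, by which 8.32% of all tested genes were higher and 4.7% lower. Of 30 tested genes of mtDNA transcription and RNA handling, 1 rose and 0 fell by the adjusted p, and the median log2 fold change was -0.08. The gene that rose was the X-linked *HSD17B10*, a subunit of mitochondrial RNase P (3238 ± 194 against 3922 ± 185, SD, n = 3 each, adjusted p = 0.0345), whose neighbours had medians of 0.39, 0.35 and 0.38. *TRMT10C*, another subunit of that enzyme, was at 2027 ± 102 and 1707 ± 147 (adjusted p = 0.0827). *TFAM*, the packaging and transcription factor of mtDNA, had 8992, 8715 and 9223 against 8491, 7630 and 7655 (-0.18 ± 0.060, adjusted p = 0.0925), with all clones below all Control libraries.

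Of 77 tested genes of the mitochondrial ribosome, 0 rose and 3 fell by the adjusted p (3.9% lower, near the background of 4.7%), with a median of -0.07. *MRPL3* had 8827, 8725 and 8803 against 7631, 7662 and 7694 (-0.20 ± 0.044, adjusted p = 0.0279) and *MRPL16* 2454, 2500 and 2499 against 2180, 2128 and 2149 (-0.21 ± 0.049, adjusted p = 0.0357). The other was *MRPL32*, with 1580, 1467 and 1565 against 1358, 1287 and 1238 (-0.25 ± 0.066, adjusted p = 0.0495), and all 3 encode proteins of the large subunit. With the neighbours' median removed in the limma fit, *MRPL3* was at -0.14 (adjusted p = 0.0521) and *MRPL16* at -0.11 (adjusted p = 0.194). *MRPL32* was at -0.22 in that fit (adjusted p = 0.0343). Among 24 tested import genes, 1 rose (*TIMM17B*, X-linked, 2159 ± 73.7 against 2855 ± 133, adjusted p = 0.00654) and 1 fell (*TOMM40L*, 827 ± 78.4 against 611 ± 54.5, SD, n = 3 each, adjusted p = 0.0357), with a median of -0.06. The neighbours of *TIMM17B* had medians of 0.43, 0.45 and 0.44. Its log2 fold change of 0.40 was -0.04 after their removal (adjusted p = 0.627), while *TOMM40L* was at -0.42 after removal of its own neighbours' median (adjusted p = 0.0227).

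Of 18 tested TCA cycle genes, 2 rose and 0 fell by the adjusted p, with a median of -0.01. *IDH2*, the mitochondrial NADP-dependent isocitrate dehydrogenase, had 986, 1111 and 1058 against 1562, 1608 and 1485 (0.56 ± 0.071, adjusted p = 0.00384), and its neighbours had medians between -0.01 and 0.05. *PDHA1*, the X-linked alpha subunit of pyruvate dehydrogenase, had 5495, 5282 and 5472 against 7472, 6741 and 7159 (0.39 ± 0.055, adjusted p = 0.00545), where the neighbours' medians were 0.40, 0.22 and 0.38. Removing the neighbours left 0.54 for *IDH2* (adjusted p = 0.00116) and 0.06 for *PDHA1* (adjusted p = 0.401).

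Among 13 tested regulators of mitochondrial genes, 1 rose by the adjusted p, the nuclear receptor corepressor *NRIP1* (2201 ± 65.4 against 2644 ± 49.8, SD, n = 3 each, adjusted p = 0.0192), and 2 by the study's cut-off in limma (2 in edgeR and 0 in DESeq2). These were the coactivator *PPARGC1A* at a very low level, 8.01, 5.87 and 8.02 against 12.9, 22.5 and 24.3 (adjusted p = 0.0519), and *TFEB*, a regulator of lysosomal genes (60.3 ± 5.50 against 89.7 ± 3.65, adjusted p = 0.0527). *NRF1* (1128 ± 10.95 against 1102 ± 63.3), *GABPA* (1472 ± 60.6 against 1444 ± 99.1) and *MYC* (9260 ± 153 against 9646 ± 575) had adjusted p-values of 0.777, 0.822 and 0.554. The factors whose sites are typical of these promoters thus differed by less than the spread between the clones.

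Of 14 tested genes of coenzyme Q and cytochrome c, 2 rose, *HCCS* (1973 ± 113 against 2364 ± 107, X-linked, adjusted p = 0.0437) and *COQ8B* (708 ± 69.9 against 928 ± 80.4, SD, n = 3 each, adjusted p = 0.0474). The neighbours of *HCCS* had medians of 0.38, 0.19 and 0.32. With the neighbours' median removed in the limma fit, *HCCS* was at -0.03 (adjusted p = 0.746) and *COQ8B* at 0.26 (adjusted p = 0.0561). Of 6 tested complex III assembly genes, 1 fell, *UQCC1* (2859 ± 103 against 2463 ± 77.9, adjusted p = 0.0452), and *LYRM7* on chromosome 5 was at 1538 ± 57.9 and 1198 ± 257 (SD, n = 3 each, adjusted p = 0.147). *UQCC1* was at -0.26 with its neighbours' median removed (adjusted p = 0.0122). Neither 24 complex IV assembly genes (smallest p at *COA5*, adjusted p = 0.0913, and *CMC2*, 0.177) nor 3 of complex V (*FMC1*, 0.329, and *ATPAF2*, 0.667) nor 13 further complex I factors (*TMEM70*, 0.0808, and *TMEM186*, 0.318) gave a call in limma, edgeR or DESeq2. Their unadjusted p was below 0.05 for 1, 0 and 1 genes, and their medians were -0.03, 0.05 and -0.03.

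Clone 2 stood apart on chromosome 5. The 7 tested members there were described after their values were seen. In clone 2 they lay -0.91 (*NDUFS4*), -0.90 (*SDHA*), -0.79 (*NDUFAF2*), -0.70 (*UQCRQ*), -0.67 (*COX7C*), -0.60 (*NDUFA2*) and -0.32 (*NDUFS6*) from the Control mean on the log2 scale. In clones 1 and 3 the 6 other than *SDHA* lay between -0.22 and 0.14. All clones were below all Control libraries for *SDHA* and *NDUFS6*, while the groups overlapped for the other 5. With the neighbours' median removed, *SDHA* was at -0.46 (adjusted p = 0.00450 in limma) and *NDUFS6* at 0.02 (adjusted p = 0.817).

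*NDUFS4*, a subunit needed for late complex I assembly, had 2231, 2201 and 2258 in Control and 1913, 1184 and 2271 in SAMD1 KO, so clone 2 was far below the Control range while clone 3 lay just above it. *COX7C* had 7800, 7148 and 7898 against 7654, 4794 and 8273, and *UQCRQ*, a small subunit of complex III, had 4000, 3854 and 3893 against 3918, 2416 and 3846. *NDUFAF2* had 968, 934 and 975 against 1059, 553 and 972, and *NDUFA2* 2001, 2007 and 1955 against 1941, 1308 and 2008. Of these 5, 0 passed in limma, edgeR or DESeq2 and 0 had an unadjusted p below 0.05, with adjusted p-values from 0.292 to 0.579 in limma. The other genes of the chromosome were low in that clone too, with a median log2 difference of -0.52 over 584 tested genes that are not members, against -0.04 in clone 1 and -0.02 in clone 3. Past position 50000000, where these 5 members lie, the median of the other 493 genes was -0.56 in clone 2.

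**Figure D4:**
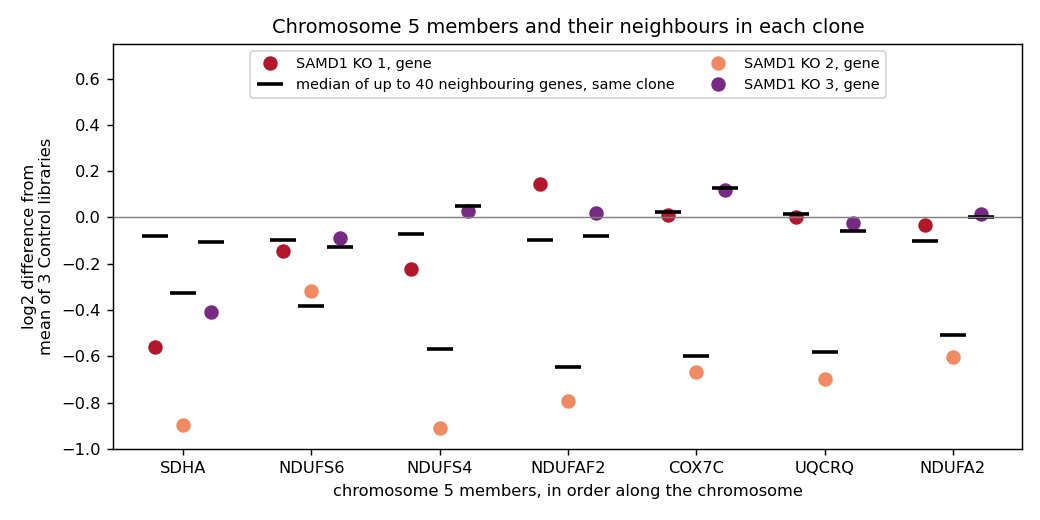
Log2 difference of the 7 chromosome 5 members from the Control mean (y axis) in each clone (coloured points), in order along the chromosome (x axis), with the median of up to 40 neighbouring genes in the same clone as black bars. In clone 2 the genes from *NDUFS4* to *NDUFA2* lie below bars between -0.51 and -0.65. *SDHA*, *NDUFS4* and *COX7C* lie below their bars in all 3 clones, *COX7C* only slightly in clones 1 and 3. *NDUFS4* was at -0.22, -0.91 and 0.03 in clones 1 to 3, against bars at -0.07, -0.57 and 0.05.

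Members were also set beside their neighbours on all chromosomes. Across the 89 tested nuclear-encoded members, the difference of a member from the Control mean and the median of its neighbours had Pearson correlations of 0.64, 0.81 and 0.50 in clones 1 to 3. Over the 82 members that are not on chromosome 5 they were 0.68, 0.65 and 0.49. The points of a clone share 1 library, and members on 1 chromosome share neighbours, so these values are descriptions. A region of chromosome 11 gave another case, chosen after its values were seen. *NDUFS3*, a core complex I subunit, had 3428, 3318 and 3448 in Control and 2692, 3722 and 3780 in SAMD1 KO, and in clone 1 it was at -0.34 where its neighbours were at -0.31. With the neighbours' median removed in each library, *SDHA* was the single nuclear-encoded member with an adjusted p below 0.05.

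**Figure D5:**
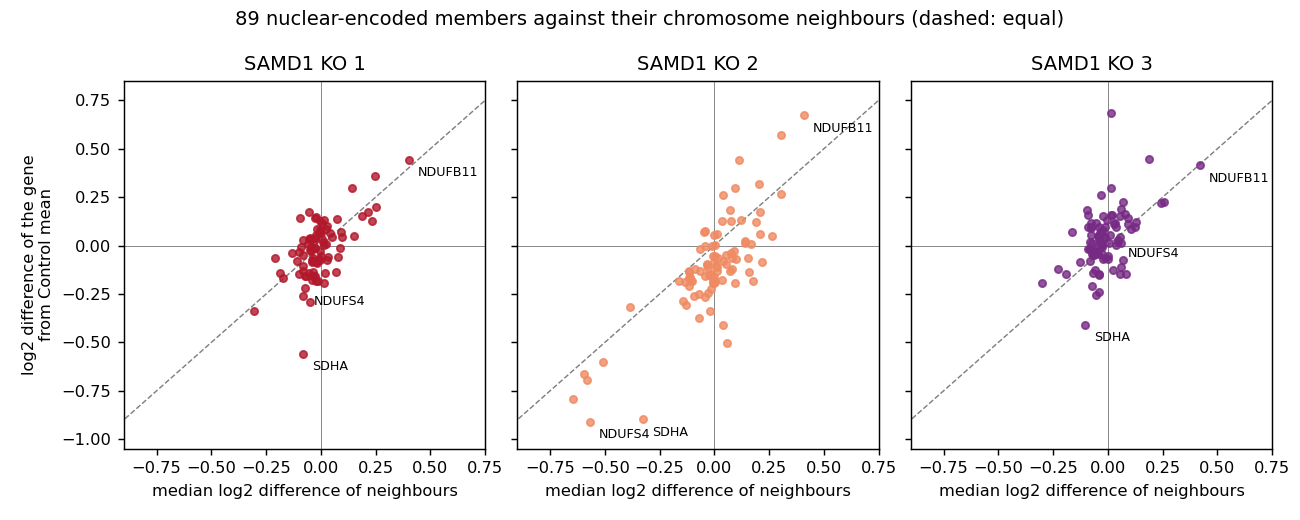
Log2 difference of each of 89 nuclear-encoded members from the Control mean (y axis) against the median log2 difference of its neighbouring genes (x axis), 1 panel a clone, with equality dashed. *NDUFB11* lies near the line at neighbours' medians of 0.40, 0.41 and 0.42, and *SDHA* lies below it in each clone.

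Replicate 2 of both groups also shared a deviation with base composition. Across the 89 nuclear-encoded members, the deviation of a library from its group mean correlated with transcript GC content with a Pearson r of 0.62 in Control replicate 2 and 0.41 in clone 2, and of -0.50 to -0.17 in the other 4 libraries. *NDUFS7*, a core complex I subunit with a GC content of 66.9%, chosen after its values were seen, had 1429, 1861 and 1480 in Control and 1416, 1971 and 1494 in SAMD1 KO. Replicate 2 was the highest in each group, and the part of GC content in the other results was tested as an alternative fit with the GC trend removed. In that fit *SDHA* was at -0.68 and *NDUFB11* at 0.45, with adjusted p-values of 0.00889 and 0.00465.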

How the data were processed

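RNA-seq libraries were made with a stranded mRNA kit. The authors aligned the reads to the transcriptome (GenCode 43) with RNA-Star, and the submitters' processing notes name featureCounts, DESeq2 and hg38. The deposited signal is a normalized count, a read count that the authors divided by 1 size factor per library. The strand setting and filters are not given in the sources used here. A deposited table of the authors' own comparison (mean, fold change, error, p-values) was not used, and 0 sample columns were left unused.

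All values in a library were whole multiples of 1 step (within 0.01 reads), so whole reads were recovered (100% of values) and used for depth, shares, edgeR and DESeq2. limma 3.58.1 (R 4.3.3, trend) was fitted to log2(normalized count + 1) of 12773 genes with a mean of at least 10, with two-sided p-values adjusted by Benjamini-Hochberg over these genes. Fold changes are on that scale and understate low genes. Neighbours are up to 20 tested genes on each side (GENCODE 44 positions, 188 older symbols matched, 99.3% of tested genes placed). Near a chromosome end there are fewer on the side of that end, as for *SDHA*. In simulated counts for this comparison (12773 genes), limma called 24 of 50 genes changed 1.25-fold and 48 of 50 changed 1.5-fold by the adjusted p, with 8 calls among 12573 unchanged genes. Those counts were drawn independently, with the same dispersion for all genes and no clone, regional or GC shifts. These rates therefore need not hold for the real libraries.

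Genes named are those past the study's cut-off, the 3 smallest p-values and the most abundant gene of each complex and of the assembly factors, mtDNA-encoded genes, alternative subunits, X-linked members and, per related list, the 2 smallest p-values with the main regulators. *UQCRHL*, *UBA1*, *CCDC127*, *PDCD6*, *PLEKHG4B*, *PDCD6-AHRR*, *TFEB* and *MRPL32*, and others so marked in the text, were picked once their values had been seen. The members and lists were chosen with earlier results of these data known. Alternatives were a pseudocount of 0.1 or 10, no minimum or a mean of at least 50, 75th percentile or TMM scaling, omission of each library in turn, the replicate number as a block, edgeR 4.0.16, DESeq2 1.42.0, removal of the neighbours' median and, added after the data were seen, removal of the GC trend and leaving out chromosome 5. Summaries used Python 3.11.15, numpy 2.4.6, pandas 2.3.3 and SciPy 1.17.1.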

Additional observations from a re-analysis of the deposited data

How the results depend on the processing

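The results rest on 3 libraries a group, with totals of 35589477 to 45172216 reads. The count of 2 members past the study's cut-off was 1 with the GC trend removed and 0 with the neighbours' median removed, where *SDHA* stood at -0.46 and *NDUFB11* at 0.10. Leaving out 1 library gave 0 (without clone 2) to 2. The count of 7 members with an adjusted p below 0.05 was 15 in DESeq2, 12 with the GC trend removed, 4 with no minimum on low values and 3 with the replicate number as a block. With 1 library fewer it was 0 (without Control replicate 1) to 11 (without clone 1), with 1 without Control replicate 2 and 2 without Control replicate 3. The cause of these shifts was not tested, except that the fits without a library hold fewer samples. The difference in the mtDNA-encoded share ran from -0.436 to -0.313 percentage points when 1 library was left out. The medians of the nuclear-encoded subunits and of the mtDNA-encoded genes moved by less than the spread between clones in every alternative run, and *SAMD1* stayed past the threshold in each. Scalings moved the median of all genes by less than 0.1 on the log2 scale. Whether the replicate numbers pair the libraries is not settled. Deviations from the group means correlated at 0.0391, 0.134 and 0.0318 for numbers 1 to 3. Each clone correlated best with the Control library of its own number, while Control replicate 3 correlated best with clone 1 (0.036). Of 115 alternative values of the 7 members that passed, 77 kept an adjusted p below 0.05, 38 did not and 0 changed direction. The neighbours' median was not removed for mtDNA-encoded genes, which have no nuclear neighbours, and restricting the share to protein genes gave no separate value because the table holds no others.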
